A study of Homo sapiens with 2 samples.

Results

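The VEGF family comprises secreted growth factors, the receptor kinases that bind them and the neuropilins that act as co-receptors, and 9 of its genes were followed through an RNA sequencing comparison of HGC-27, a human cell line established from gastric cancer and labelled undifferentiated. The genes were chosen by name: the ligands VEGFA, VEGFB, VEGFC and PGF, the receptor kinases FLT1, KDR and FLT4, and the neuropilins NRP1 and NRP2, which are 9 of the 56544 gene names in the table of expression values. All of them were present, each on 1 entry. Cells of the control library had received a control peptide and cells of the SOS library a peptide named SOS in its sample title and SHAP in the title of the series. Both peptides were delivered in PDPA micelles, and the cells, grown in medium with serum, were treated for 48 h. SHAP is known as a Hippo-activating peptide modelled on STRN3, a scaffold that brings the phosphatase PP2A to the Hippo kinases. There was 1 library per group, so differences have no replicate check and were not tested, and the text describes these 2 libraries only. Levels are FPKM, fragment counts divided by transcript length and by library size, which sets genes of 1 library side by side. The FPKM of all genes summed to 886320 in control and 757901 in SOS, so ratios between the libraries depend on their scaling. The table gives no read counts, so the depth behind each value is unknown. In the authors' deposited table a positive log2 ratio goes with a higher control column. Either that ratio divides control by SOS, or the names of both columns were swapped and all directions given here would turn.

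VEGF ligands are dimers released by tissues that need blood supply, and VEGFA is the main one, a classical target of the hypoxia-inducible factor HIF. They act through receptor tyrosine kinases: FLT1 (VEGFR1) binds VEGFA, VEGFB and PGF, KDR (VEGFR2) carries most of the growth signal in endothelial cells, and FLT4 (VEGFR3) binds VEGFC and serves lymphatic vessels. The neuropilins have no kinase domain; they bind VEGF and class 3 semaphorins and pair with the kinases or with plexins. Tumour cells are best known in this system as a source of ligand, and some also carry neuropilins.

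The promoters of a steady ligand, of a scarce ligand and of both receptors listed at 0 are shown because they mark where transcription of these genes would begin. RefSeq promoter windows (GRCh38.p14), which run from 250 bases before to 50 bases after a gene's start, were found for 6 of the 9 genes: VEGFB, VEGFC, PGF, FLT1, KDR and NRP2. VEGFA, NRP1 and FLT4 had no window there. A second PGF window, around another start, was not printed. The stretches printed end before the first annotated base of the gene in both RefSeq and GENCODE, and capitals mark the core letters of a hypoxia response element, ACGTG or GCGTG, on either strand (CACGT or CACGC on the printed strand).
VEGFB, chr11:64234334-64234537, forward strand: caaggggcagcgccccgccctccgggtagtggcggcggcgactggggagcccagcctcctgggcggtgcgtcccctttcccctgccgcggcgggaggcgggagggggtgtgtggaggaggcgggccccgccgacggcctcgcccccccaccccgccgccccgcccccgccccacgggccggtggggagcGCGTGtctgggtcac
PGF, chr14:74955785-74956014, reverse strand: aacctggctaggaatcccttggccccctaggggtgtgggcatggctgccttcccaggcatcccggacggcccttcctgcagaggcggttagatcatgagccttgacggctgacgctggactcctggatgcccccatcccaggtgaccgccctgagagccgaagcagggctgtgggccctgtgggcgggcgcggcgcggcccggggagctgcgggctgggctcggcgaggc
FLT1, chr13:28495146-28495378, reverse strand: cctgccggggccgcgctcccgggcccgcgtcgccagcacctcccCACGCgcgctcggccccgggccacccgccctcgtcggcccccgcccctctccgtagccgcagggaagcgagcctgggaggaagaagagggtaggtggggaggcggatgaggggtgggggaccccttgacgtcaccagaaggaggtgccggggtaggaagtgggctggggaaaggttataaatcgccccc
KDR, chr4:55125596-55125845, reverse strand: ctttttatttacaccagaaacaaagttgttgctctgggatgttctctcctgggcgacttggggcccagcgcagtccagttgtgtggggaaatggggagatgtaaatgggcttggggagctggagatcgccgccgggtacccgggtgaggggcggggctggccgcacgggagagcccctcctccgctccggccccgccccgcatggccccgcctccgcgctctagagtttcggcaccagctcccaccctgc
The VEGFB stretch held 1 such core, 61 bases before the RefSeq start, and the FLT1 stretch held 1. The PGF and KDR stretches held none, although the whole PGF window held 1. The VEGFC stretch, which is not printed, held 1 core, 59 bases before its RefSeq start. A core stood in 48.4% of all 35116 windows of 300 bases, so its presence or absence here is a description of letters and not of binding. The GC box GGGCGG, read on both strands, occurred 9 times in the 300 bases around the VEGFB start and 2 times in those around the KDR start, while 45.0% of all windows held at least 1.

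VEGFA was the 1 family member whose difference passed the size rule defined in this paragraph, and it was higher in the SOS library. Its FPKM was 42.1 in the control library and 124 in the SOS library, a gain of 82.0 FPKM and a 2.95-fold difference. VEGFB, PGF, NRP1 and NRP2 stayed within a log2 ratio of 1 in either direction, and the receptor kinases FLT1 and KDR were listed at 0 in both libraries. The measure throughout is log2((SOS FPKM + 1)/(control FPKM + 1)), taken for genes that reached an FPKM of 1 in control or SOS. A gene counted as higher or lower once that ratio was 1 or more from 0. That is a 2-fold difference in FPKM + 1 and asks for more than 2-fold in FPKM itself, above all for scarce genes. Of the 9 genes, 5 reached that minimum level (VEGFA, VEGFB, PGF, NRP1 and NRP2) and 4 did not. Of these 5, the size rule called 1 higher and none lower, where 3.74% of all 14288 measured genes were higher by as much, 1.64% were lower, and 5.39% were past the rule in either direction. The median log2 ratio of the 5 was 0.25, against -0.05 for all measured genes.

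**Figure D1:**
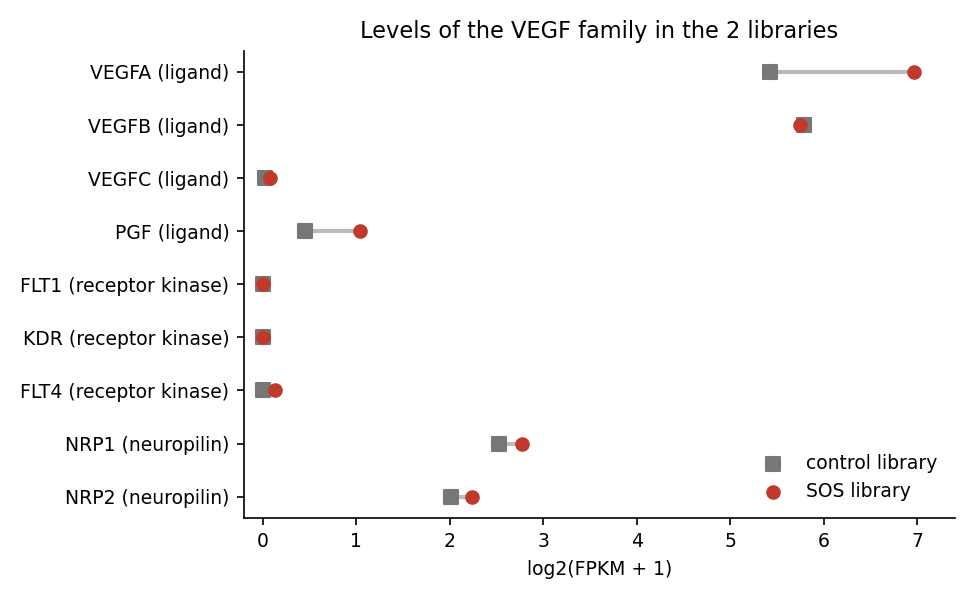
Level of each family member in the control library (grey squares) and the SOS library (red circles), as log2(FPKM + 1), with 1 library per group and no error bars. VEGFA shows the widest gap, from 42.1 to 124 FPKM, both VEGFB points lie together, and the 3 receptor kinases sit at or next to 0.

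Among the ligands, VEGFA (ENSG00000112715.21, chromosome 6, 43770184 to 43786487, GRCh38, forward strand) changed its place in the order of levels. In control it came after VEGFB, at 0.774 times the VEGFB level, and in SOS it stood at 2.35 times that level. Its share of the summed ligand FPKM was 43.5% in control and 69.7% in SOS. Among 11781 measured protein-coding genes it ranked 2369 in control and 596 in SOS. Its log2 ratio of 1.54 was exceeded by 108 of the 14288 measured genes, 0.756% of them. The authors' deposited table gave VEGFA a log2 ratio of -1.159, the sign that goes with a higher SOS column, listed its adjusted p as 0 and marked it as significant; how that p was computed is not given in the sources used here, and with 1 library per group it compares libraries, not treatments. Entries with that mark were 1.88% of all named entries, and no other family member carried it. Every marked entry had an absolute log2 ratio of at least 1 and an adjusted p under 0.001 in the authors' deposited table.

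The size of the VEGFA difference depended on how it was read. The authors' log2 ratio is called the ratio of reads here. For some scarce genes it can be written in whole numbers, but many ratios can be. That it counts reads was therefore not established, and the name is a label only. Turned to SOS over control and with its median offset of 0.152 from the FPKM ratios removed, the authors' ratio came to 1.31 for VEGFA, or 2.48-fold, against 2.95-fold by FPKM. GENCODE annotates 32 transcripts of VEGFA. The 26 coding ones have lengths from 336 to 3535 bases, and the table holds 1 value for the whole gene. Levels of single transcripts can therefore not be given. Scaling both libraries to the same summed FPKM gave 1.76 and leaving out mitochondrial genes from that sum gave 1.89.

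An antisense gene lies on the other strand inside the VEGFA locus. AL136131.3, an uncharacterised RNA of 188 bases at 43770429 to 43770616, lies inside the gene span of VEGFA and was listed at 13.7 FPKM in control against 118 in SOS, an 8.65-fold difference. Whether the libraries kept strand is not given in the sources used here, so reads of AL136131.3 and of VEGFA cannot be told apart. FPKM divides by length, so a short RNA reaches a high value on few reads. Multiplied by its 188 bases, its FPKM came to 1.73% in control and 5.07% in SOS of the same product for VEGFA. For VEGFA the longest coding transcript of 3535 bases was taken. The part of AL136131.3 in the VEGFA value was not tested. The authors' deposited table gave it a log2 ratio of -2.322, which is that of 1 against 5, with an adjusted p of 0.0986. The other genes that overlap a family member, AC093801.1 in VEGFC, AC111194.2 in KDR, AL121748.2 and RN7SL398P in NRP1 and AC007362.1 in NRP2, were listed at 0 in both libraries.

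VEGFB (ENSG00000173511.9, chromosome 11, 64234538 to 64238793, forward strand), a ligand of FLT1 tied to fatty acid handling and vessel survival rather than to sprouting, had an FPKM of 54.3 in the control library and 52.7 in the SOS library. It was thus the most abundant ligand in control, with 56.1% of the summed ligand FPKM, and came second to VEGFA in SOS, with 29.6%. Its log2 ratio was -0.04, and it turned positive under all 3 scalings, up to 0.31 with mitochondrial genes left out of the sum. The summed FPKM of all 4 ligands was 96.8 in control and 178 in SOS, 1.84-fold higher, and the gain of VEGFA was 101% of this net gain.

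PGF and VEGFC were scarce. PGF (ENSG00000119630.13, chromosome 14, 74941834 to 74955784, reverse strand), the placental growth factor, which binds FLT1 and not KDR, was at 0.366 in control and 1.06 in SOS. The plain ratio of these values was 2.89, close to that of VEGFA, but with a pseudocount of 1 the log2 ratio was 0.59. The authors' deposited table gave PGF a log2 ratio of -1.433, with an adjusted p of 0.00144 and no mark of significance. The smallest whole numbers found with that ratio were 10 and 27, which need not be reads. A pseudocount of 0.1 gave a log2 ratio of 1.31 and the authors' ratio of reads gave 1.59, both past the size rule. VEGFC (ENSG00000150630.3, chromosome 4, 176683538 to 176792727, reverse strand), the lymphatic growth factor, was at 0.018 in control and 0.057 in SOS. Its log2 ratio of -1.585 in the authors' deposited table is that of 1 against 3. VEGFD, the other lymphatic ligand, was also under the minimum, at 0.192 and 0.123. At these levels no direction can be given for VEGFC or VEGFD.

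The receptor kinases were hardly seen. FLT1 (ENSG00000102755.11, chromosome 13, 28300344 to 28495145, reverse strand) and KDR (ENSG00000128052.9, chromosome 4, 55078259 to 55125595, reverse strand), the kinases through which VEGFA signals, were each listed at 0 FPKM in both libraries. Their longest annotated coding transcripts run to 7092 bases for FLT1 and to 6055 bases for KDR. FLT4 (ENSG00000037280.15, chromosome 5, 180601506 to 180649624, reverse strand) was listed at 0 in control and 0.099 in SOS, and the authors' deposited table gave it an adjusted p of 0.0117 with a log2 ratio of 0. No fold is given against a library at 0. The summed receptor kinase FPKM was 0.099 in SOS, beside 178 for the ligands.

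The neuropilins were the VEGF-binding receptors with clear expression. NRP1 (ENSG00000099250.17, chromosome 10, 33177492 to 33336262, reverse strand), a co-receptor for VEGFA and for SEMA3A, had an FPKM of 4.75 in the control library and 5.86 in the SOS library. NRP2 (ENSG00000118257.16, chromosome 2, 205681990 to 205798133, forward strand), a co-receptor for VEGFC and for SEMA3F, was at 3.04 and 3.73. Both were 1.23-fold higher in SOS by FPKM, and their ratio to each other was 1.56 in control and 1.57 in SOS. Their log2 ratios of 0.25 and 0.23 were exceeded by 27.0% and 28.8% of all measured genes. They stayed above 0 in all 7 alternatives tried and reached at most 0.55 and 0.50. The choice of entry cannot move a gene on 1 entry, a changed pseudocount cannot turn a sign, and the scalings raise SOS against control. Of the 7, only the authors' ratio of reads could have gone below 0. The authors' deposited table listed adjusted p of 8.55e-06 for NRP1 and 3.55e-06 for NRP2, with log2 ratios of -0.1336 and -0.2276 and no mark of significance. The ligands outweighed the neuropilins 12.4-fold in control and 18.6-fold in SOS by summed FPKM.

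**Figure D2:**
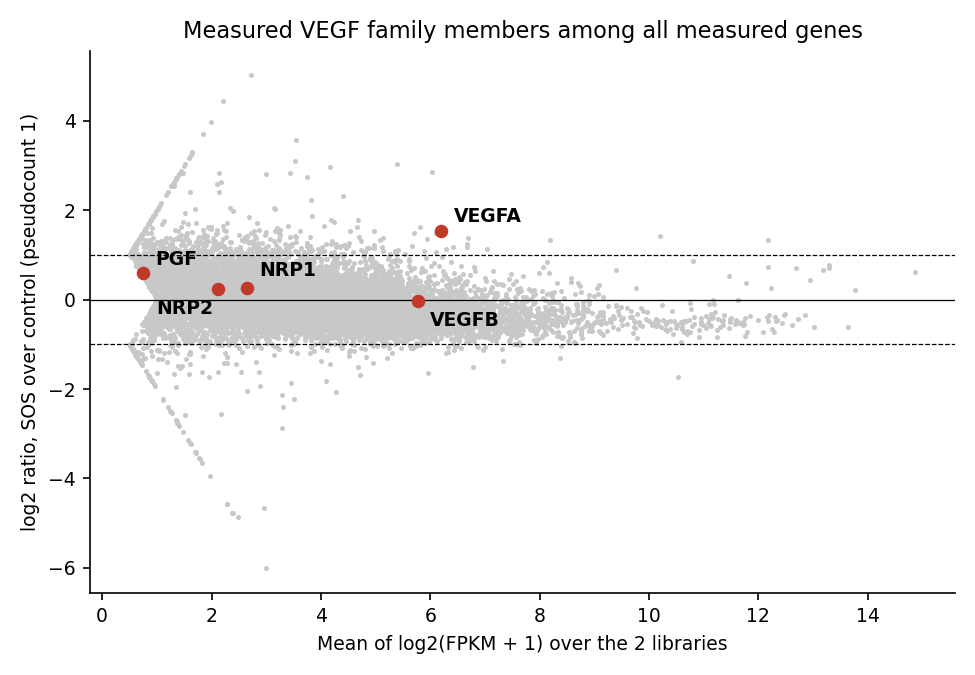
Log2 ratio of SOS over control (pseudocount 1) against the mean of log2(FPKM + 1) for all 14288 measured genes (grey) and the 5 measured family members (red), with dashed lines at -1 and 1. VEGFA lies above the upper line at 1.54, while VEGFB, NRP1, NRP2 and PGF lie between the lines.

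The cells carried no clear endothelial signature beside these receptors. Of 13 endothelial markers 3 reached an FPKM of 1, and the list summed to 102 in control and 90.5 in SOS, most of it EGFL7 (74.6 and 65.3) and ENG (24.2 and 22.2). The defining genes were at or near 0: CDH5, the endothelial cadherin, at 0 in both libraries, PECAM1 at 0.009 and 0.008, VWF at 0 and 0.008, and TEK at 0.073 and 0. Epithelial markers, which a gastric carcinoma line might carry, were nearly absent too: 1 of 8 reached the minimum, and the list summed to 2.38 and 1.77. CLDN4, the measured one, stood at 1.20 in control and 0.616 in SOS, KRT8 at 0.797 and 0.353 and KRT19 at 0.146 and 0.115. CDH1 stood at 0 and 0.016, KRT18 at 0 and 0.066 and EPCAM at 0.238 and 0.599. KRT20 and CLDN3 were at 0 in both. The identity of the cells is taken from the labels and was not checked beyond these markers, which do not show an epithelial pattern in either library. All 9 fibroblast and mural markers were measured, and their sum was 785 in control and 1148 in SOS, with 8 of 9 log2 ratios above 0 and none of them past the size rule. RGS5, among these 8 with 3.48 and 4.21, had -2.21 by the authors' ratio of reads, so its direction is uncertain. COL1A1 was at 210 and 379, and PDGFRB at 2.51 and 5.07, while ACTA2, smooth muscle actin, was lower by the size rule at 20.2 and 8.24. The sum of this list was larger in the same library in which VEGFA was higher, and its part in the VEGFA value was not tested. In bulk RNA, more cells of a kind and more RNA per cell cannot be told apart.

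The lists that follow describe the surroundings of the family, each read against all measured genes, with a median of -0.05, 45.8% above 0, 3.74% higher and 1.64% lower. Scaling to the same summed FPKM moved that overall median to 0.15, the upper quartile to 0.10 and the sum without mitochondrial genes to 0.26, so medians near 0 turn with the scale.

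Of 20 known HIF targets other than VEGFA, 19 were measured. The size rule called 7 of them higher in the SOS library and none lower, and the number past it was 11 at the same sum without mitochondrial genes. A log2 ratio above 0 was found for 17, and the median was 0.75 (0.74 to 1.10 over the alternatives). LOX, a collagen crosslinker, matched the VEGFA log2 ratio to 2 decimals, with 17.3 FPKM in control against 52.2 in SOS. CA9, NDRG1 and NDUFA4L2 were further from 0 than VEGFA, with 11.1-fold, 7.97-fold and 7.46-fold differences. DDIT4, PFKFB4 and P4HA1 were also past the size rule, at 2.51-fold, 2.93-fold and 2.07-fold. The glucose transporter gene SLC2A1 (63.0 and 58.2) and the hexokinase gene HK2 (25.5 and 22.3) lay below 0, and BNIP3 was at 0.320 and 0.205. This list was drawn up with some of these values known, so its direction is not independent of them.

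The measured factors that set VEGFA transcription showed no such difference in their own RNA. Of 20 genes for HIF subunits, oxygen sensors and other regulators, 16 were measured, 7 lay above 0, and none passed the size rule; the median was -0.03 and lay between -0.03 and 0.31 over the alternatives. HIF1A was at 38.9 in control and 43.6 in SOS. EPAS1, which encodes HIF-2alpha, and HIF3A were under the minimum, at 0.320 and 0.197 and at 0.092 and 0.509. HIF protein is set mainly by its degradation, which RNA levels do not show. The oxygen-sensing hydroxylase genes were at 17.4 and 21.0 for EGLN1, 20.8 and 13.5 for EGLN2, and 8.10 and 10.6 for EGLN3. EGLN3 was also counted among the HIF targets. The nuclear receptor gene ESRRA had a log2 ratio of -0.26. Proteins that bind or splice VEGFA RNA were measured for all 17 listed genes, with 6 above 0, none past the size rule and a median of -0.22 (-0.28 to 0.13 over the alternatives). The splicing factors SRSF2 and SRSF1 were at 565 and 330 and at 279 and 190, their kinase SRPK1 at 44.2 and 30.5, and the kinase CLK1 at 13.9 and 22.1.

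Of 14 semaphorins, plexins and adaptors that partner the neuropilins 13 were measured, 10 lay above 0, and the size rule called 2 higher. The number past it was 4 with a pseudocount of 0.1 and under each of the 3 scalings. Their median was 0.36 (0.25 to 0.65 over the alternatives). PLXNA3, a plexin co-receptor, stood at 4.99 FPKM in control against 11.9 in SOS. Its log2 ratio was 1.11 by FPKM and 0.73 by the authors' ratio of reads. L1CAM, an adhesion molecule that associates with NRP1, was at 3.08 and 7.44. The semaphorins SEMA3D and SEMA3B came just short of the size rule, at 4.28 and 9.36 and at 5.48 and 11.4. SEMA3A, the ligand of NRP1 that repels axons and competes with VEGFA, was at 20.9 and 33.2, SEMA3F at 22.1 and 24.4, and SEMA3G at 4.78 and 2.55.

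Signalling genes below the receptor kinases were mostly measured, although FLT1 and KDR were listed at 0 and FLT4 was under the minimum. Of 39 genes 36 were measured, 12 lay above 0 and none passed the size rule; the median was -0.17 and was of the other sign in 2 of 9 alternatives. HRAS was at 48.9 in control and 24.9 in SOS, and the regulatory subunits of PI3-kinase, PIK3R1 and PIK3R2, at 8.28 and 17.2 and at 49.4 and 87.6. PIK3R1 had a log2 ratio of 0.97 by FPKM and 0.37 by the authors' ratio of reads. SHC2, an adaptor, was at 3.34 and 5.82, and PLCG1, the phospholipase that KDR engages, at 37.4 and 40.3. Phosphatases and trafficking proteins that act on the receptors had 9 of 12 genes measured and a median of -0.22, of the other sign in 2 of 9 alternatives. PTPN1 was at 18.5 and 12.8, PTPN11 at 26.3 and 18.6, RAB7A at 79.5 and 58.2 and RAB11A at 173 and 137. PTPRB, the endothelial phosphatase, was at 0 and 0.008.

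Other angiogenic ligands were mostly scarce in these cells. Of 20 further angiogenic factors 7 were measured, 4 lay above 0 and none passed the size rule; the median was 0.22 (0.12 to 0.50 over the alternatives). Adrenomedullin (ADM), a vasodilator peptide that was also counted among the HIF targets, was at 8.30 in control and 15.9 in SOS. The midkine gene MDK was at 226 and 154, PLAU at 1.56 and 2.87 and ANG at 4.21 and 6.07. FGF2 was at 0.009 and 0, CXCL8 at 0.064 and 0.156, and EDN1 at 0 in both. Of the angiopoietin and Tie genes 2 of 6 were measured, ANGPTL4, a secreted lipase inhibitor, at 12.7 and 26.0 and ANGPT1 at 0.613 and 1.68. The relatives of the VEGF ligands in the PDGF family and their processing enzymes had 6 of 8 genes measured and a median of 0.08 (0.03 to 0.40 over the alternatives). PDGFD was at 3.91 and 6.82, PDGFB at 3.05 and 1.75, PDGFA at 12.0 and 13.4 and ADAMTS14 at 2.21 and 2.68.

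**Figure D3:**
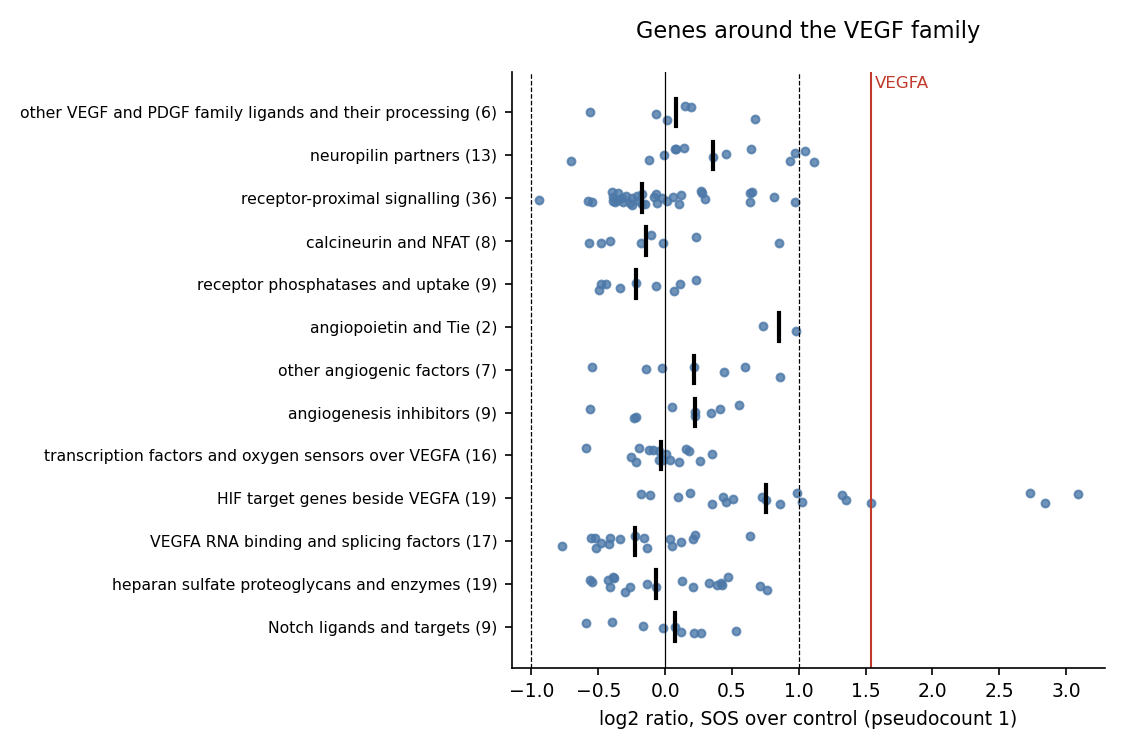
Log2 ratio of SOS over control (pseudocount 1) for every measured gene (blue points, spread vertically at random) of 13 gene lists, with the number measured in brackets, the median of each list as a black bar, dashed lines at -1 and 1, and VEGFA at 1.54 as a red line. CA9, NDUFA4L2 and NDRG1 among the HIF targets reach past VEGFA, and PLXNA3 and L1CAM among the neuropilin partners pass the upper line.

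The protein-coding genes most like VEGFA in both libraries, by distance in log2(FPKM + 1) over these 2 libraries, were NBPF14, ALDOC, LAMB1, NRN1 and OGT. NBPF14 was closest, at 40.1 in control and 115 in SOS, but its log2 ratio by the authors' ratio of reads came to 0.33. As a member of a family of near-identical copies its value is uncertain. ALDOC, a glycolytic aldolase, was at 52.3 and 115, LAMB1, a laminin chain, at 46.7 and 99.3, NRN1, a neurite growth factor, at 37.3 and 96.5, and OGT, which adds GlcNAc to proteins, at 52.4 and 103. Their distances from VEGFA ran from 0.127 to 0.410.

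**Figure D4:**
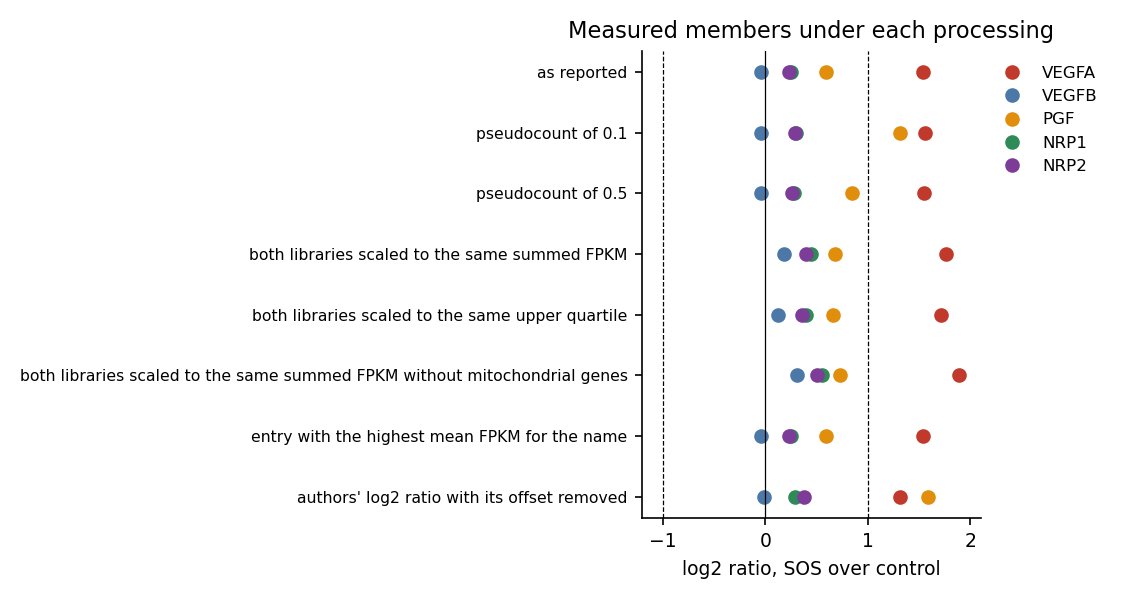
Log2 ratio of SOS over control of the 5 measured family members as reported and under 7 other ways of processing, with dashed lines at -1 and 1. VEGFA stays between 1.31 and 1.89, PGF crosses the line with a pseudocount of 0.1 and by the authors' ratio of reads, and VEGFB changes side of 0.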

How the data were processed

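RNA sequencing of 1 control and 1 SOS library of HGC-27 cells was read from 1 table. Per the file headers it holds the authors' FPKM for each library, and the deposited log2 ratio, p-value and adjusted p-value of the authors' own comparison. The submitters' processing notes list HISAT2, Cufflinks, RSEM and the build GRCh38.p10. Versions, and the test behind the p-values, are not given in those notes.

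Entries without a gene name (412) and names turned into dates by a spreadsheet (27) were left out, and values of entries sharing a name were summed. The log2 ratio used a pseudocount of 1, a minimum FPKM of 1 in either library and a size of at least 1; it understates differences of scarce genes. The calculation was tested on simulated data (Python 3.11.15, pandas 2.3.3). Positions come from GENCODE release 29, matched by name for 96.6% of names. Promoter sequences are RefSeq's.

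All 9 family members are named. Of each list the measured genes past the size rule are named, then those furthest from 0 until 4 are named, plus genes given for a level near 0, and the 5 protein-coding genes nearest to VEGFA. SLC2A1, HK2, PLCG1, SEMA3A, SEMA3F, SEMA3G, HIF1A and the single marker genes printed were chosen after their values were seen. The members and lists were chosen with earlier results of these data known. No read counts are given, so depth and counting error are unknown.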

Additional observations from a re-analysis of the deposited data

How the results depend on the processing

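VEGFA stayed above 0 and past the size rule in all 7 alternatives tried for its ratio (1.31 to 1.89). The choice of entry cannot move it, and smaller pseudocounts and the scalings can only raise it. Only the authors' ratio of reads could have lowered it. The family members higher by the size rule were 2 instead of 1, PGF joining VEGFA, with a pseudocount of 0.1, by the authors' ratio of reads and with a size rule of 0.58. By the authors' ratio VEGFC, under the minimum level, came to 1.74. The counts over all measured genes, 535 higher and 235 lower as reported (69.5% higher), were 1094 and 442 with a pseudocount of 0.1, 778 and 329 with 0.5, 273 and 126 with a minimum FPKM of 5, 930 and 309 by the authors' ratio, and 1677 and 1507 with a size rule of 0.58 (52.7% higher). They were 828 and 153 after scaling to an equal summed FPKM (84.4% higher), 753 and 162 at the same upper quartile (82.3%), and 1098 and 132 at the same sum without mitochondrial genes (89.3%). The cause of these moves was not tested. With a minimum FPKM of 5, PGF and NRP2 are not measured. The medians of 7 of 12 lists with ranges took the other sign in at least 2 alternatives, and those of the HIF targets and neuropilin partners in none. The scalings raise SOS against control, so they cannot turn a median above 0. The genes past the size rule in the list of signalling genes were 0 as reported and up to 2 under the scalings, and in the angiopoietin list 0 as reported and 2 with a pseudocount of 0.1 or by the authors' ratio. FLT1 and KDR had a log2 ratio of 0 in the 6 alternatives that give them a value, which their FPKM of 0 in both libraries fixes beforehand. No paired analysis was possible because each group has 1 library. Depth limits are unknown.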

Other observations

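Heparan sulfate proteoglycans, which hold VEGF at the cell surface and in the matrix, were listed together with enzymes that act on heparan sulfate. Log2 ratios in this joint list lay on both sides of 0. Of 20 genes 19 were measured, 9 lay above 0 and 10 below, none passed the size rule, and the median of -0.07 was of the other sign in 4 of 9 alternatives. The basement membrane proteoglycans HSPG2 (perlecan) and AGRN (agrin) had log2 ratios of 0.76 and 0.71. The syndecans SDC1 and SDC4 had log2 ratios of -0.56 and -0.54. Inhibitors of angiogenesis had 9 of 13 genes measured, 6 above 0, none past the size rule and a median of 0.22 (0.05 to 0.52 over the alternatives). The serpin SERPINF1 was at 162 in control and 205 in SOS, the vasohibin VASH1 at 3.02 and 4.89, VASH2 at 3.76 and 5.33, and ISM1 at 1.80 and 0.903.

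Notch genes, which restrain VEGF-led sprouting in endothelium, had 9 of 12 genes measured and a median of 0.08, of the other sign in 2 of 9 alternatives. The Notch ligand JAG2 had 71.1 FPKM in the control library and 53.7 in the SOS library, JAG1 at 2.64 and 4.26, DLL1 at 3.16 and 4.01, and the feedback gene NRARP at 11.4 and 7.25. The endothelial ligand DLL4 was at 0.485 and 0.443. Of the 9 calcineurin and NFAT genes found by name 8 were measured, with a median of -0.14, of the other sign in 3 of 9 alternatives. NFATC4 was at 35.2 and 64.3, PPP3CC, a catalytic subunit of calcineurin, at 12.8 and 8.33, NFATC1 at 5.38 and 3.58, and RCAN1, the calcineurin inhibitor that KDR signalling induces in endothelium, at 6.68 and 4.77. Lymphatic endothelial markers were all under the minimum, with PROX1 at 0.064 in control and 0.337 in SOS and LYVE1 at 0 in both.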
